A study of Mus musculus with 18 samples.

Results

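The glutathione, peroxiredoxin and thioredoxin antioxidant genes were followed through the testis of mice given streptozotocin (STZ), the beta-cell toxin used to model diabetes. Members were chosen by gene symbol. They were the cytosolic and microsomal glutathione S-transferases, the peroxiredoxins, the glutathione peroxidases other than Gpx5, the superoxide dismutases, the thioredoxins and the thioredoxin reductases. Cat, Gclc, Gclm, Gss, Gsr, Nqo1 and Hmox1 were added by name. The set held 54 of the 20985 genes in the table, of which 50 were high enough to test. RNA was sequenced from whole testis of ICR mice aged 10 weeks, in 6 groups of 3 libraries. The control group had no listed treatment, the AOS group received AOS at 10 mg/kg, and the STZ group received STZ. The STZ+AOS group received STZ with AOS at 10 mg/kg. The remaining groups received STZ with FMT, labelled either as FMT of AOS at 10 mg/kg (STZ+AOS-FMT) or as control FMT (STZ+control-FMT). The labels do not spell out AOS, which is left as written, and FMT is read as faecal microbiota transplantation. They do not say whether libraries of a group came from separate animals, so p-values measure only the spread between libraries, which may be technical.

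Glutathione is a small thiol made by glutamate-cysteine ligase and glutathione synthetase and kept reduced by glutathione reductase at the expense of NADPH. Glutathione peroxidases use it to reduce peroxides, and glutathione S-transferases join it to reactive electrophiles. Peroxiredoxins reduce peroxides as well and are themselves regenerated by thioredoxin, which thioredoxin reductase recharges from NADPH. Superoxide dismutases turn superoxide into hydrogen peroxide, which catalase breaks down. Many of these genes are targets of NRF2, a transcription factor held in check by KEAP1 that binds antioxidant response elements. In the testis Gpx4 is also a structural protein of the sperm mitochondrial capsule, and several thiol enzymes have forms made mainly by spermatids.

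Values are expression levels whose unit the table does not name; they are taken as FPKM, that is, scaled to transcript length and library depth, a reading that rests on partial evidence. Library sums ran from 561038 to 622169 over the 18 libraries, and the number of reads behind them is not known. Replicates within a group correlated at 0.978 to 0.995 across genes, and no pair shared more than 0.81% identical values. Among the STZ libraries, library 1 stood apart in its summed level of 8 Leydig cell markers. The sum was 1799 FPKM there, 12010 and 12810 FPKM in libraries 2 and 3, and 3523 to 4045 FPKM in the controls. Insl3 made up most of it, at 1574.39, 10966.6 and 11438.49 FPKM in the STZ libraries and 2929.11 to 3344.52 FPKM in controls. Cyp17a1 was at 78.99, 419.24 and 624.56 FPKM in the STZ libraries and 306.94 to 375.02 FPKM in controls. Control library 3 and STZ+control-FMT libraries 2 and 3 are called the libraries with epididymal RNA, from the epididymal markers Crisp1 and Adam7. Crisp1 was at 158.77, 255.65 and 33.64 FPKM there, against 13.04 FPKM or less in every other library. Adam7 was at 8.62, 10.65 and 39.61 FPKM there. Other epididymal markers did not mark all of them. Lcn8 was at 0, 0.13 and 70.21 FPKM and Cst11 at 0.29, 0.44 and 77.81 FPKM in the same order. Cst8 was at 272.89 FPKM in control library 3 and 273.9 FPKM in control library 1. The fat cell markers Fabp4 and Cfd were at 78.54 and 62.12 FPKM in STZ library 3, against 8.29 and 6.22 FPKM in STZ library 2. Fabp4 was at 30.55 to 39.85 FPKM in the STZ+control-FMT libraries and at 3.84 to 11.28 FPKM in controls. Fold changes are differences of group means of log2(FPKM + 1), a scale that understates the change of low genes, and adjusted p-values are from limma with Benjamini-Hochberg adjustment over 14164 genes.

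Promoter sequence bears on the set because NRF2 binds a short element. Its core, TGACNNNGC, was searched on both strands in RefSeq promoters (GRCm38.p6) running from 250 bases before to 50 bases after each start. It was present in 8 of the 46 members that had a promoter sequence (17.4%), against 14.0% of 27025 RefSeq genes. By outcome in the STZ comparison it was found in 6 of 19 members that were higher, 1 of 4 that were lower and 1 of 19 that were not called. The same split was not made over all genes, and the counts are small. No link between the element and the outcome can be read from them. The members holding it were Gclm, Gsta3, Gstm5, Gstm7, Mgst1, Prdx1, Sod1 and Txnrd1. Shown here are the 250 bases upstream of the start for 3 members that were higher in STZ testis (Prdx1, Mgst1 and Sod1), for the abundant transferase gene that was lower (Gstm5), and for Gsta3, which was lower in the STZ+AOS group than in controls. All lie on the + strand, at chr4:116685349-116685598 (Prdx1), chr6:138140277-138140526 (Mgst1), chr16:90220512-90220761 (Sod1), chr3:107895604-107895853 (Gstm5) and chr1:21240335-21240584 (Gsta3). Capitals mark the match, which is a description of the letters and not of binding.
Prdx1: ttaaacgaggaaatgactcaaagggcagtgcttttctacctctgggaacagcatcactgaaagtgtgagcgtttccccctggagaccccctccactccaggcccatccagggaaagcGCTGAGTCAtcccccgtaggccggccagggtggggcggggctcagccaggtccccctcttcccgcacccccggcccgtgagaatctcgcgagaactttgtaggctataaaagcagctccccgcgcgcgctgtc
Mgst1: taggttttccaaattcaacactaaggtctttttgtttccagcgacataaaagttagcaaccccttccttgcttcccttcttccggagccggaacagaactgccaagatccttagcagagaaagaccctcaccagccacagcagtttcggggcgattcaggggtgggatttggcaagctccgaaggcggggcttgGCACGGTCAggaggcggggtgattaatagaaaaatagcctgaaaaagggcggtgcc
Sod1: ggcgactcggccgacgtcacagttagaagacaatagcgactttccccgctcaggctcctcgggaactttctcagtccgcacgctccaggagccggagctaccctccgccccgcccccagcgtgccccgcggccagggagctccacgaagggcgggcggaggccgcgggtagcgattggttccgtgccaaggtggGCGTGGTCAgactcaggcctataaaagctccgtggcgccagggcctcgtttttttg
Gstm5: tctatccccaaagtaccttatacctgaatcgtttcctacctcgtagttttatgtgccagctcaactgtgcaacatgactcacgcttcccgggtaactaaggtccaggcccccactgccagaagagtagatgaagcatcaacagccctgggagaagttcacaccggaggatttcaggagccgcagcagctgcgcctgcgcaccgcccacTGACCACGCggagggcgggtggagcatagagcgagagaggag
Gsta3: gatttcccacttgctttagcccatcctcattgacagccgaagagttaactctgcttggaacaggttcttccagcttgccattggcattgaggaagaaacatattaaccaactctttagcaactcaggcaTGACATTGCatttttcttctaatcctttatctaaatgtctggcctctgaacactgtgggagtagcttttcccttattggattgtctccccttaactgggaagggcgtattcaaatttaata
The match began 133 bases before the start in Prdx1 and 121 in Gsta3. It began 56 bases before it in both Mgst1 and Sod1, and 42 in Gstm5.

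Prdx2, Prdx3, Gpx1, Mgst1, Gsta4 and Gstm6 were higher in STZ than in control testis, and Gpx6 and Txnrd3 were lower. Of the 50 tested members, 25 were higher and 4 were lower. Over all 14164 genes 43.2% were higher and 12% were lower, so the members' shares of 50% and 8% were near the background. The median log2 fold change was 0.35 for the members and 0.17 for all genes. In 23 members all 3 STZ libraries lay above all 3 controls and in 3 they lay below, against 42.1% and 11.5% of all genes. The direction of these counts depends on scaling. The median of all genes was 0.17 as deposited, -0.06 after quantile normalization and -0.17 after median centring to expressed genes. The split of members higher against lower was 25 to 4, 15 to 3 and 12 to 14. Of all 14164 genes 3156 were higher and 4093 lower after quantile normalization, and 2678 and 6119 after median centring. The members' median was above that of all genes by 0.18 as deposited and by 0.25 after quantile normalization. Median centring shifts every gene of a library alike, so it cannot change this gap. Cat, Gpx1, Gsta4, Gstm6, Gstm7, Hmox1, Mgst1, Prdx1, Prdx2, Prdx3 and Sod3 were higher, and Gpx6 and Txnrd3 lower, under all 3 scalings. Every other member called as deposited lost its call under at least 1 of the other scalings. In whole tissue fewer cells of a type and less RNA per cell cannot be told apart, and cell type markers moved with the members. All 12 Sertoli cell markers were higher (summed level 771 to 845 FPKM in controls and 1862 to 2429 FPKM in STZ), as were 7 of 8 macrophage markers (51.5 to 54.2 and 117 to 211 FPKM). All 10 elongating spermatid markers were lower (52610 to 58990 and 26050 to 47870 FPKM), as were 7 of 8 round spermatid markers. Markers of spermatogonia (7 of 8), peritubular myoid cells (5 of 6) and endothelium (5 of 6) were higher, and 1 of 8 Leydig cell markers was. Of 8 spermatocyte markers 1 was higher and 2 lower. Their part in the members' changes was not tested.

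**Figure D1:**
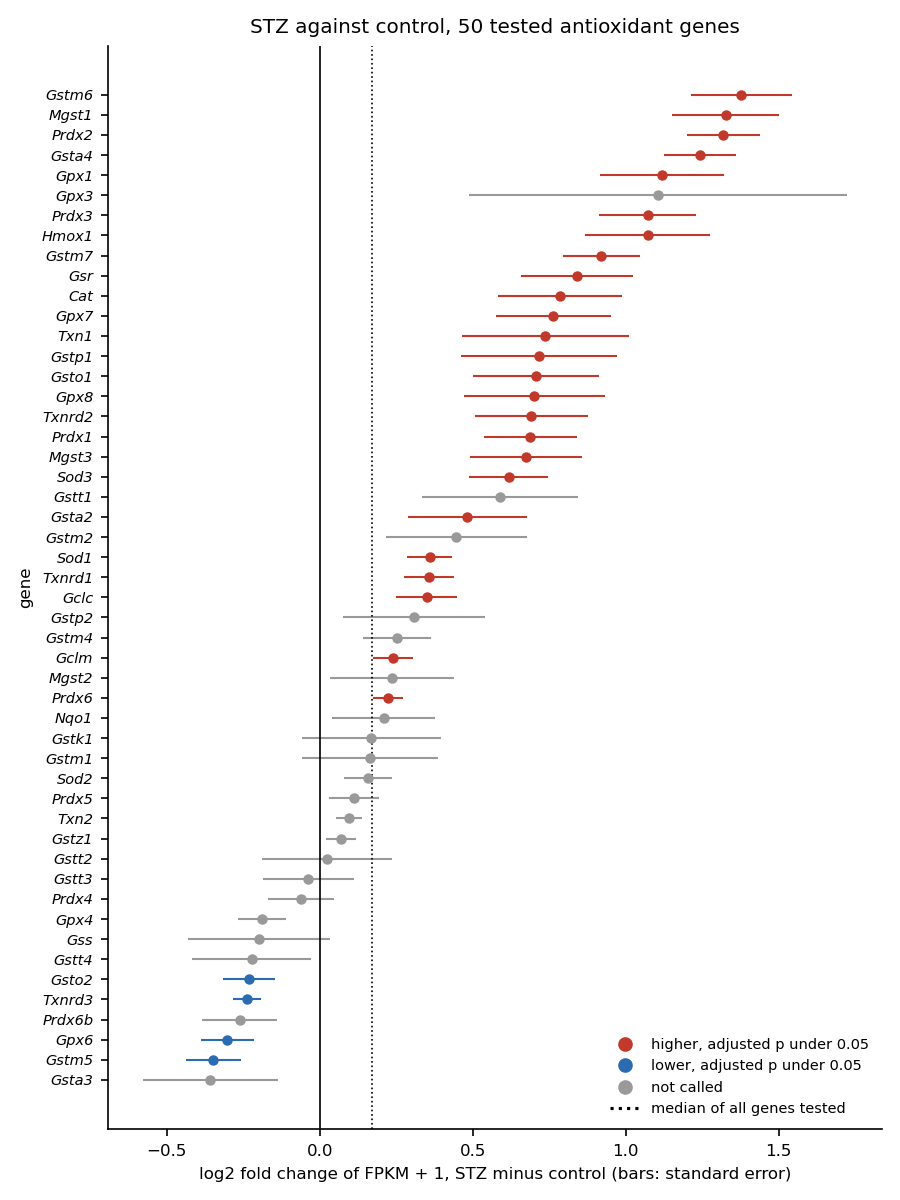
Log2 fold change of each tested member in STZ against control testis, on the log2(FPKM + 1) scale. 25 members were higher and 4 lower as deposited, and the split was 12 to 14 after median centring. Of all 14164 genes 43.2% were higher and 12% lower as deposited, and 2678 were higher and 6119 lower after median centring.

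Of the 7 peroxiredoxins, 4 were called higher as deposited, where 43.2% of all genes were. Prdx6 was among them, with a sign that turned after median centring. Prdx2, a cytosolic peroxiredoxin at chr8:84969587-84974834, was at 27.05, 27.59 and 27.99 FPKM in the controls and at 53.84, 83.63 and 76.72 FPKM in STZ testis. The groups did not overlap, and the lowest STZ library was well above the highest control (log2 fold change 1.32, SE 0.12, adjusted p = 4.6e-07). Prdx3, the mitochondrial peroxiredoxin, was at 15.14, 14.27 and 15.32 FPKM in controls and at 23.46, 36.77 and 39.44 FPKM in STZ testis. It was higher by 1.07 (SE 0.16, adjusted p = 4.8e-05). Prdx1 was at 61.28, 60.77 and 60.81 FPKM in controls and at 69.11, 120.38 and 115.92 FPKM in STZ testis. Its controls were nearly identical, and STZ library 1 lay only a little above them (0.69, SE 0.15, adjusted p = 0.0014). Prdx6, which also has phospholipase activity, was at 49.64, 48.51 and 47.39 FPKM in controls and at 54.52, 58.37 and 57.55 FPKM in STZ testis. It was called higher by 0.22 as deposited (adjusted p = 0.0015) but was at -0.12 after median centring. Prdx4, of the secretory pathway, was at 113.78, 124.39 and 116.12 FPKM in controls and at 143.15, 93.57 and 107.89 FPKM in STZ testis. Its STZ libraries fell on both sides of the controls (-0.06, adjusted p = 0.65). Prdx5 (0.11) and Prdx6b (-0.26) were not called either.

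Among the glutathione peroxidases, Gpx1, the cytosolic enzyme that reduces hydrogen peroxide, was at 24.31, 25.46 and 24.04 FPKM in controls. In STZ testis it was at 33.30, 71.57 and 68.03 FPKM. All STZ libraries lay above the controls, library 1 by far the least (1.12, SE 0.20, adjusted p = 2.9e-04). Gpx7 and Gpx8, peroxidases of the endoplasmic reticulum, were higher by 0.76 (adjusted p = 0.0031) and 0.70 (adjusted p = 0.017). Gpx7 is scarce: its mean reached 1 FPKM only in the STZ group. Gpx4 reduces lipid peroxides and lies at chr10:80047166-80056439. It was at 1274.65, 1199.62 and 1275.44 FPKM in controls and at 1290.83, 990.88 and 1030.46 FPKM in STZ testis. STZ libraries 2 and 3 lay below every control and library 1 above them (-0.19, adjusted p = 0.053). Gpx6 was at 53.40, 48.71 and 50.55 FPKM in controls and at 45.96, 39.22 and 38.33 FPKM in STZ testis. It was lower without overlap (-0.30, SE 0.087, adjusted p = 0.0080).

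Of the 4 genes that make and recycle glutathione, 3 were called higher as deposited and Gss was not, where 43.2% of all genes were higher. Gsr, glutathione reductase, was at 3.94, 4.43 and 5.02 FPKM in controls and at 10.32, 7.04 and 9.17 FPKM in STZ testis. It is the member of this group with the largest difference (0.84, SE 0.18, adjusted p = 0.0013), and unlike Gpx1 and Prdx1 it was highest in STZ library 1. Gclc, the catalytic subunit of glutamate-cysteine ligase, was at 8.60, 8.76 and 8.41 FPKM in controls and at 9.12, 11.81 and 13.07 FPKM in STZ testis (0.35, SE 0.099, adjusted p = 0.0075). Gclm, its modifier subunit, was at 19.79, 20.65 and 19.30 FPKM in controls and at 22.10, 23.44 and 25.62 FPKM in STZ testis. Its groups did not overlap, but the difference of 0.24 (adjusted p = 0.0057) turned to -0.10 after median centring. Gss, glutathione synthetase, varied widely within groups, at 9.50, 4.14 and 8.73 FPKM in controls and at 4.34, 6.95 and 7.18 FPKM in STZ testis, and was not called (-0.20, adjusted p = 0.49).

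As deposited, thioredoxin and its reductases split by form. Txn1, cytosolic thioredoxin, was at 16.71, 14.00 and 15.58 FPKM in controls and at 13.17, 37.21 and 36.72 FPKM in STZ testis. STZ library 1 lay below every control and the other two lay far above them (0.74, SE 0.27, adjusted p = 0.031). Txnrd1, the cytosolic reductase, was at 6.99, 7.74 and 7.92 FPKM in controls and at 8.98, 10.18 and 10.71 FPKM in STZ testis (0.36, SE 0.081, adjusted p = 0.0018). The mitochondrial reductase Txnrd2 was higher by 0.69 (adjusted p = 0.0052), and mitochondrial Txn2 was not called (0.10, adjusted p = 0.069). Txnrd3, the thioredoxin-glutathione reductase known from spermatids, was at 188.44, 197.34 and 188.00 FPKM in controls and at 170.95, 159.20 and 156.18 FPKM in STZ testis. It went the other way from Txnrd1 and Txnrd2, without overlap (-0.24, SE 0.046, adjusted p = 4.5e-04). The calls of Txn1, Txnrd1 and Txnrd2 did not hold after quantile normalization or after median centring, and that of Txnrd3 did. Txn1 was also not called when STZ library 2 or 3 was left out.

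Of the 3 superoxide dismutases, Sod1 and Sod3 were called higher, as was catalase, and Sod2 was not, where 43.2% of all genes were higher. The call of Sod1 did not hold after median centring. Sod3, the extracellular enzyme, was at 18.89, 19.33 and 19.08 FPKM in controls and at 23.18, 30.21 and 37.85 FPKM in STZ testis (0.62, SE 0.13, adjusted p = 8.5e-04). Sod1, the abundant cytosolic enzyme, was at 294.91, 279.59 and 261.32 FPKM in controls and at 317.09, 356.53 and 403.01 FPKM in STZ testis (0.36, SE 0.074, adjusted p = 8.2e-04). Both were free of overlap. Sod2, the mitochondrial enzyme, was at 30.82, 31.70 and 31.93 FPKM in controls and at 33.98, 34.09 and 37.86 FPKM in STZ testis, and it missed the threshold (0.16, adjusted p = 0.097) although its groups did not overlap. Cat was at 5.67, 5.88 and 5.25 FPKM in controls and at 6.12, 12.57 and 14.16 FPKM in STZ testis. Its STZ library 1 lay just above the highest control (0.78, SE 0.20, adjusted p = 0.0041). Hmox1, the inducible haem oxygenase, was at 8.12, 8.18 and 9.65 FPKM in controls and at 11.82, 25.87 and 23.02 FPKM in STZ testis (1.07, SE 0.20, adjusted p = 4.4e-04). Nqo1, a quinone reductase that NRF2 also induces, was at 2.62, 1.35 and 2.22 FPKM in controls and at 1.81, 3.27 and 2.53 FPKM in STZ testis. Unlike Hmox1 it overlapped between the groups and was not called (0.21, adjusted p = 0.30).

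**Figure D2:**
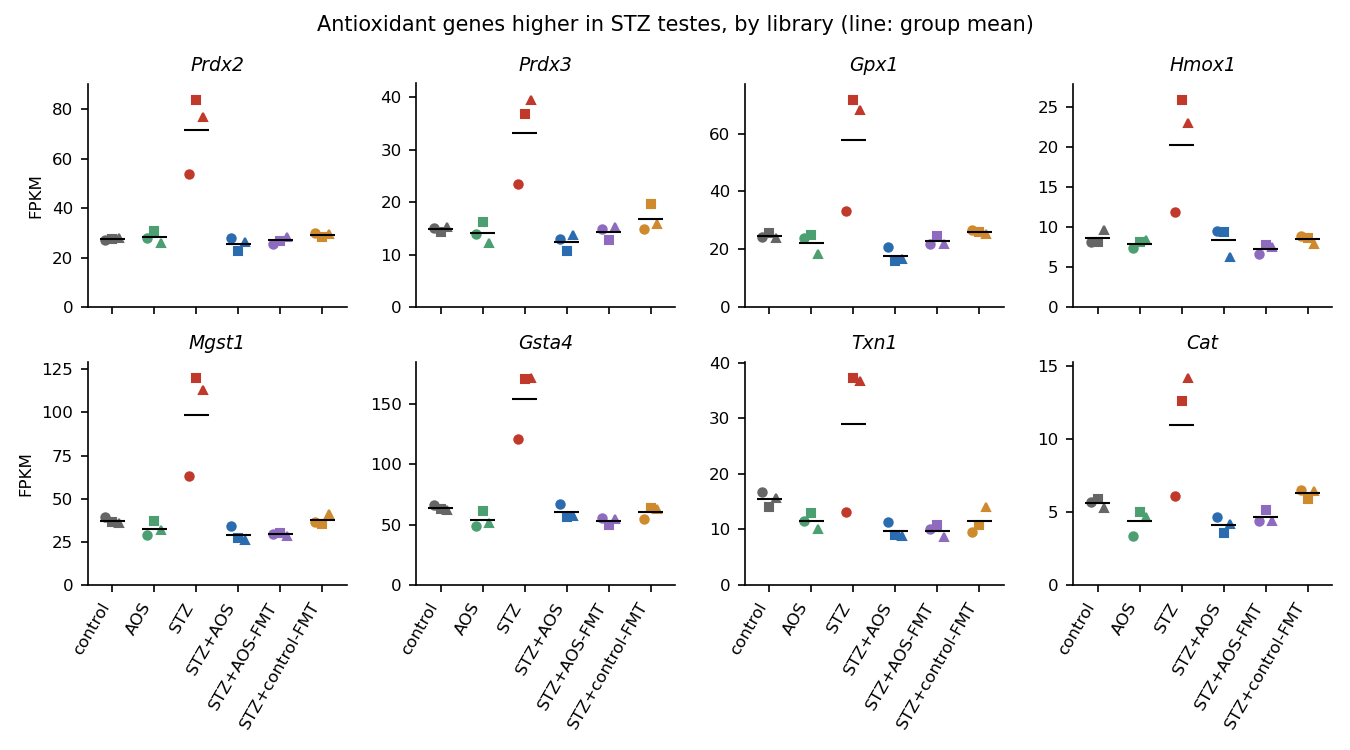
FPKM of 8 members in each library (points) with the group mean (line), for the 6 groups. For Prdx2 all 9 libraries of STZ mice given AOS or FMT lay between 22.7 and 29.74 FPKM, below the lowest STZ library at 53.84 FPKM.

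Of the transferases, 6 of 19 tested cytosolic members were higher and 2 lower, and 2 of 3 microsomal members were higher, where 43.2% of all genes were higher and 12% lower. Mgst1, a membrane-bound transferase and peroxidase, was at 39.37, 36.38 and 36.03 FPKM in controls and at 63.09, 119.85 and 112.87 FPKM in STZ testis (1.33, SE 0.17, adjusted p = 1.7e-05). Gsta4, which clears the lipid peroxidation product 4-hydroxynonenal, was at 66.24, 62.51 and 62.48 FPKM in controls and at 120.92, 170.56 and 171.14 FPKM in STZ testis (1.24, SE 0.12, adjusted p = 7.5e-07). Both rose without overlap. Gstm6 was at 27.05, 25.82 and 26.62 FPKM in controls and at 49.46, 75.65 and 93.31 FPKM in STZ testis, the largest log2(FPKM + 1) difference among tested members (1.38, SE 0.17, adjusted p = 7.3e-06). Gstm7 was at 49.77, 42.94 and 60.08 FPKM in controls and at 80.04, 112.61 and 99.45 FPKM in STZ testis (0.92, SE 0.13, adjusted p = 2.4e-05). Gstp1 (0.72), Gsto1 (0.71), Mgst3 (0.67) and Gsta2 (0.48) were also called higher. Gstp1 and Gsta2 share 62.3% and 64.2% of their 50-base stretches with other transcripts, so their values are uncertain where reads could be split between copies.

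The 7 Mu-class genes Gstm5, Gstm7, Gstm6, Gstm3, Gstm2, Gstm1 and Gstm4 lie side by side at chr3:107895821-108044894 (GRCm38) but did not move together. Gstm6 and Gstm7 were higher in STZ testis, while Gstm1 (0.16), Gstm2 (0.45, adjusted p = 0.11) and Gstm4 (0.25, adjusted p = 0.065) were not called. Gstm3 was too low to test. Gstm5, by level the most abundant member, was at 2563.04, 2443.50 and 2399.04 FPKM in controls and at 2290.76, 1743.88 and 1826.40 FPKM in STZ testis. It was lower in all 3 STZ libraries (-0.35, SE 0.089, adjusted p = 0.0040), a call that did not hold after quantile normalization. Gstm1 in STZ testis ranged from 401.05 FPKM in library 1 to 656.74 and 988.77 FPKM in the others, and Gstm2 from 269.32 to 507.91 and 638.87 FPKM. Both follow the order of the Leydig marker sums in those libraries, whose part was not tested.

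**Figure D3:**
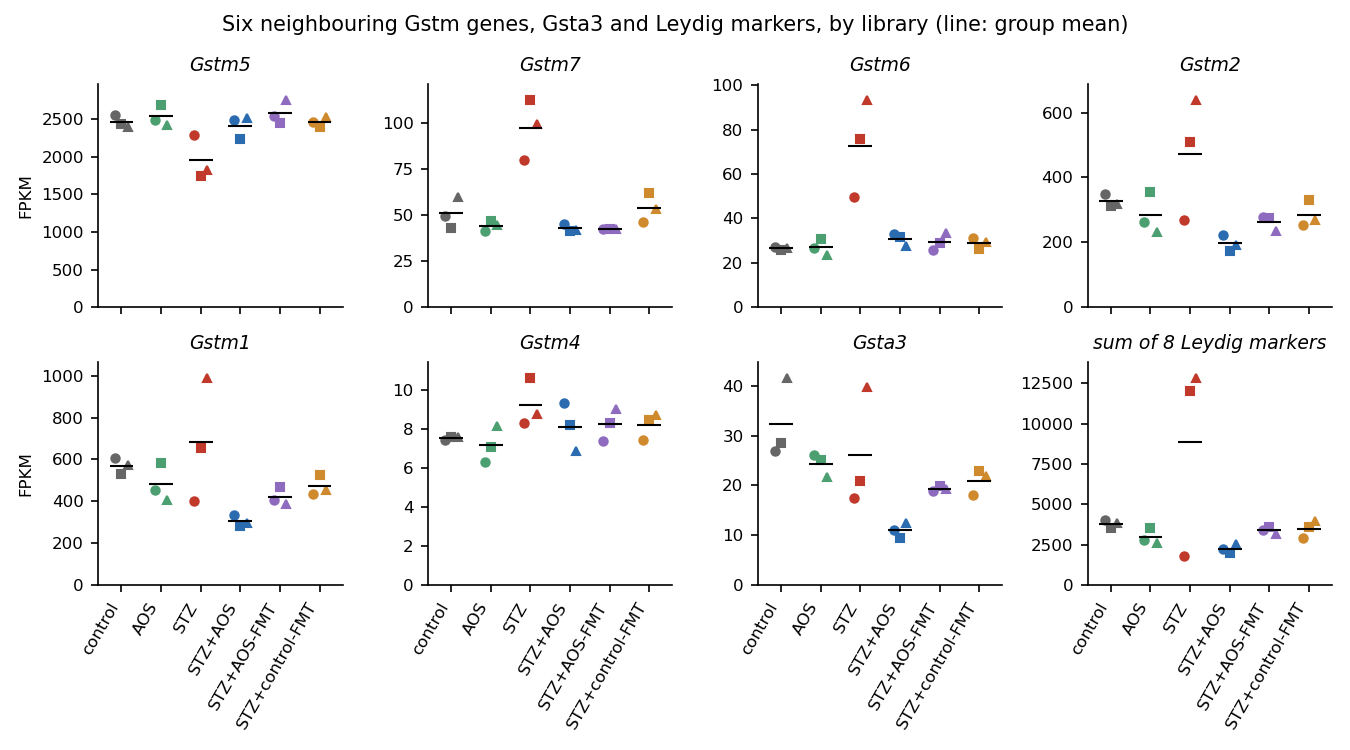
FPKM of the 6 tested Mu-class genes, Gsta3 and the sum of 8 Leydig cell markers in each library (points) with group means (lines). The Leydig sum was 1799 FPKM in STZ library 1 and 12010 and 12810 FPKM in libraries 2 and 3.

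Gstm5, Gpx6, Txnrd3 and Gsto2 were called lower, and Gsto2 overlapped between the groups, at 141.72, 156.06 and 144.20 FPKM in controls and at 151.44, 108.73 and 119.53 FPKM in STZ testis (-0.23, adjusted p = 0.032). Elongating spermatid markers were highest of the STZ libraries in library 1, where Gstm5, Gpx4, Gpx6, Txnrd3 and Gsto2 were highest too. That relation was not tested. Without STZ library 1 the counts were 31 members higher and 8 lower, with Gpx4, Gstt4, Prdx4 and Prdx6b added to the lower ones. With all libraries 43.2% of all genes were higher and 12% lower. All genes were not counted without library 1, so this rise cannot be read as particular to the members.

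**Figure D4:**
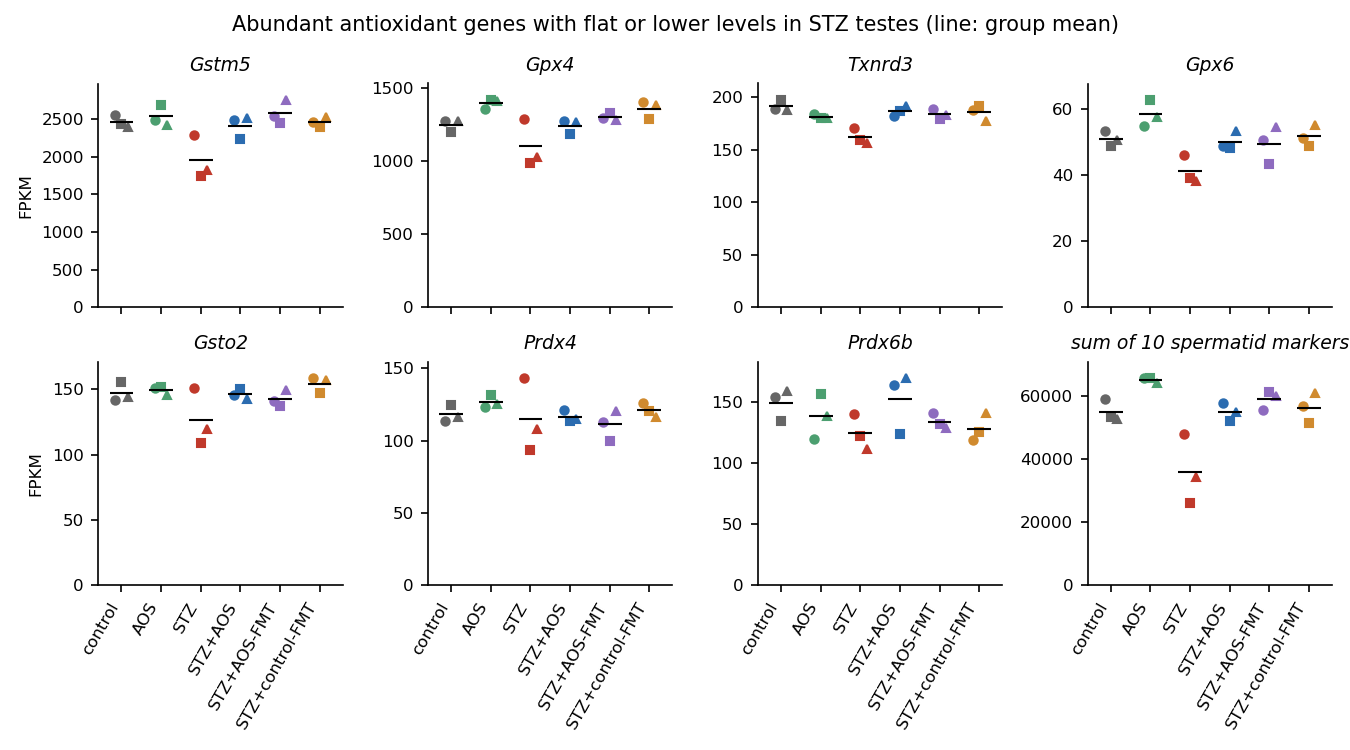
FPKM of 7 members and the sum of 10 elongating spermatid markers in each library (points) with group means (lines). Gstm5, Gpx6 and Txnrd3 had all 3 STZ libraries below all 3 controls; after quantile normalization the call of Gstm5 was lost and those of Gpx6 and Txnrd3 were not.

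Pathway genes around the members were read from lists, beside the 43.2% of all genes that were higher and the 12% that were lower. The list counts are as deposited and were not repeated under the other scalings. Of 21 tested genes of NRF2 control and other NRF2 targets, 15 were higher and 3 lower, with a median of 0.63. Among them were Abcc1, a glutathione-conjugate exporter (1.03, adjusted p = 2.1e-07), Ftl1, the ferritin light chain (1.21, adjusted p = 1.1e-06), and Sqstm1, an autophagy receptor (0.83, adjusted p = 2.1e-06). The lower ones were Osgin1 (-0.46), Hmox2 (-0.27) and Cul3 (-0.19). Nfe2l2, which encodes NRF2, was higher by 0.87 (adjusted p = 0.0018) and Keap1 was not called (0.03). Nfe2l2, Keap1 and the lower genes were named after their values were seen. Of 20 thioredoxin and glutaredoxin partners 9 were higher and 3 lower. The higher ones were led by Sesn1 (0.72), Sesn2 (0.81), Ccs, the copper chaperone of Sod1 (0.38), and Txnip, an inhibitor of thioredoxin (1.40, adjusted p = 3.9e-05). Txndc2 (-0.48), Nme8 (-0.30) and Txndc8 (-0.25) were the lower ones. Of 15 NADPH supply genes 8 were higher, led by Me2 (1.12, adjusted p = 4.3e-07) and Taldo1 (1.10, adjusted p = 3.6e-06), and 1 was lower, G6pd2 (-0.29). Of 6 tested oxidant-producing genes 5 were higher, led by Xdh, xanthine dehydrogenase (0.97, adjusted p = 1.2e-05), and by Cybb (0.92, adjusted p = 1.6e-05) and Cyba (1.36, adjusted p = 8.8e-05), subunits of the phagocyte NADPH oxidase. Of 15 genes of glutathione turnover 5 were higher and none lower, and of 16 of selenoprotein synthesis 6 were higher and 2 lower, with a median of 0.

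Prdx2, Mgst1, Gsta4 and Gpx1 were lower in STZ mice given AOS or either FMT than in STZ alone, under all 3 scalings. Over all 50 tested members the median log2 difference from control was -0.11 with STZ+AOS, -0.12 with STZ+AOS-FMT and 0.02 with STZ+control-FMT. Against STZ alone, 32 of 50 members were lower and 4 higher with AOS, where 43.1% and 11.9% of all genes were. With STZ+AOS-FMT 31 were lower and 4 higher, against 44.5% and 12% of all genes. With STZ+control-FMT 24 were lower and 5 higher, against 39.9% and 11.4%. The members' median log2 differences were -0.67, -0.51 and -0.35, where those of all genes were -0.17, -0.18 and -0.15. These comparisons share the STZ libraries with one another and with STZ against control. After median centring the members split 11 higher and 22 lower with AOS and 13 higher and 17 lower with STZ+AOS-FMT. The split was 12 and 12 with STZ+control-FMT. Of all 14164 genes 6319, 6350 and 5936 were then higher and 2818, 2744 and 2512 lower, in the same order. Sertoli and macrophage marker sums in the treated STZ groups were 813 to 917 FPKM and 42.9 to 65.0 FPKM, below every STZ library.

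Single members illustrate these counts. Prdx2 was at 27.93, 22.70 and 26.34 FPKM with STZ+AOS, at 25.65, 26.69 and 28.47 FPKM with STZ+AOS-FMT and at 29.74, 28.23 and 29.61 FPKM with STZ+control-FMT. All 9 lay below the STZ libraries (log2 differences -1.42, -1.35 and -1.24, each with SE 0.12, adjusted p = 3.4e-07, 3.5e-07 and 1.2e-06). Mgst1 was at 34.06, 27.26 and 26.02 FPKM with STZ+AOS, at 29.63, 30.16 and 28.65 FPKM with STZ+AOS-FMT and at 36.79, 35.63 and 41.39 FPKM with STZ+control-FMT. Gsta4 was at 66.88, 56.71 and 57.26 FPKM, at 55.35, 49.54 and 54.48 FPKM and at 54.95, 63.45 and 62.73 FPKM in the same order. Neither gene overlapped with STZ in any of these groups. Gpx1 was lowest with STZ+AOS, at 20.65, 15.78 and 16.50 FPKM, with 21.85, 24.48 and 21.85 FPKM for STZ+AOS-FMT and 26.48, 26.05 and 25.22 FPKM for STZ+control-FMT. Cat, Txn1 and Sod1 were not clear of STZ in every library, because STZ library 1 was low for them. Of the 4 members called lower in STZ testis, Gstm5, Gpx6 and Txnrd3 were above STZ alone in all 3 comparisons as deposited, by 0.32 to 0.41, 0.26 to 0.33 and 0.18 to 0.20. Gsto2 was called with STZ+AOS (0.22) and STZ+control-FMT (0.30) but not with STZ+AOS-FMT (0.18, adjusted p = 0.078). After quantile normalization Gpx6 was called in all 3, Txnrd3 with STZ+AOS and Gsto2 with STZ+control-FMT, and Gstm5 in none. When only the groups compared were fitted, the members' higher counts fell to 2, 0 and 1, and all genes were not counted in those fits.

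Against control testis, limma called 1 of 50 members in STZ+AOS and none in the other treated groups. The one was Gsta3, lower with STZ+AOS where 0.0282% of all genes were lower. The counts at an unadjusted p under 0.05 were 8 members with STZ+AOS, 4 with STZ+AOS-FMT and 1 with STZ+control-FMT. After adjustment 0% of all genes was called in the FMT groups. AOS alone also gave 0 called members against control, with 3 at an unadjusted p under 0.05 and 0% of all genes called. The 2 FMT groups did not differ in any member by limma (3 at an unadjusted p under 0.05, 0% of all genes called). The share of all genes at an unadjusted p under 0.05 was not counted, so no excess of members can be read from these counts. A p that misses the threshold does not show that levels were equal.

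The effect of AOS was tested for a difference between STZ and untreated mice as an interaction. Of 50 members 20 had a more negative AOS effect in STZ mice and 1 a more positive one, where 29.1% and 6.12% of all genes did. The split was 12 to 5 after median centring, where 1860 of all 14164 genes had a more negative effect and 4190 a more positive one. Mgst1 (-1.49, SE 0.25, adjusted p = 5.3e-04), Prdx2 (-1.45, SE 0.17, adjusted p = 4.0e-05) and Gpx1 (-1.44, SE 0.29, adjusted p = 0.0018) had the largest, and Txnrd3 was the one in the other direction (0.28, adjusted p = 0.0045). In untreated mice none of these was called for AOS against control, and Prdx2 was at 27.97, 30.57 and 25.95 FPKM with AOS.

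Gsta3, an alpha-class transferase at chr1:21240589-21265661 (GRCm38), was the single member called between STZ+AOS and control testis. It was at 26.86, 28.45 and 41.55 FPKM in controls and at 11.03, 9.49 and 12.50 FPKM with STZ+AOS, without overlap (-1.45, SE 0.22, adjusted p = 0.020). It was at 26.18, 25.21 and 21.72 FPKM with AOS alone and at 17.53, 20.99 and 39.79 FPKM with STZ. In the FMT groups it was at 18.95, 19.96 and 19.25 FPKM (STZ+AOS-FMT) and at 18.11, 22.94 and 21.88 FPKM (STZ+control-FMT). The call did not hold when any 1 control library or STZ+AOS library 1 or 2 was left out (adjusted p from 0.062 to 0.17), and held without STZ+AOS library 3 (adjusted p = 0.042). It did not hold without the libraries carrying epididymal RNA either (adjusted p = 0.22). Leydig markers were low in the same group, at a summed 1990 to 2537 FPKM with STZ+AOS against 3523 to 4045 FPKM in controls (0 of 8 called, median -0.99), and their part was not tested. When only these groups were fitted, Gstm1 (adjusted p = 0.0028), Gstm2 (adjusted p = 0.019) and Gstk1 (adjusted p = 0.030) were lower as well, with Gstm1 at 335.81, 281.30 and 295.04 FPKM against 608.88, 530.71 and 574.12 FPKM.

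Gpx3, the secreted glutathione peroxidase at chr11:54902453-54910377, followed single libraries more than groups. It was at 12.74, 10.76 and 59.35 FPKM in controls and at 27.10, 57.68 and 57.80 FPKM in STZ testis, and was not called (1.10, SE 0.62, adjusted p = 0.14). The high control was library 3, which carried epididymal Crisp1; without it the difference was 1.85 (adjusted p = 0.014). It was at 21.42, 87.34 and 40.07 FPKM with STZ+control-FMT, highest in library 2, where Crisp1 was highest too. In the other groups it was at 9.57, 9.83 and 8.30 FPKM (AOS), 18.74, 25.32 and 8.46 FPKM (STZ+AOS) and 7.46, 12.89 and 27.97 FPKM (STZ+AOS-FMT). The STZ libraries were high with Crisp1 at 13.04, 0.97 and 0.36 FPKM. Fabp4, a fat cell marker, was at 6.96, 8.29 and 78.54 FPKM in STZ testis and at 4.01, 17.52 and 24.13 FPKM with STZ+AOS-FMT. Its library order matched that of Gpx3 in those groups and not in the other groups. The part of epididymal or fat RNA in these values was not tested.

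The theta-class genes Gstt4, Gstt2 and Gstt3, in a cluster with Gstt1 at chr10:75774115-75837424, were high in the same single libraries. Gstt4 was at 398.54, 208.84 and 204.94 FPKM in STZ testis and at 267.77, 269.46 and 376.48 FPKM in controls. Gstt2 was at 33.30, 18.76 and 20.90 FPKM in STZ testis and at 21.26, 18.59 and 31.38 FPKM in controls. Gstt3 was at 28.87, 19.26 and 19.15 FPKM and at 19.98, 22.01 and 26.31 FPKM. STZ library 1 and control library 3 were the highest of their groups for all 3 genes, and none was called. Gstt1 did not share this order in STZ testis, at 6.55, 4.39 and 8.29 FPKM.

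**Figure D5:**
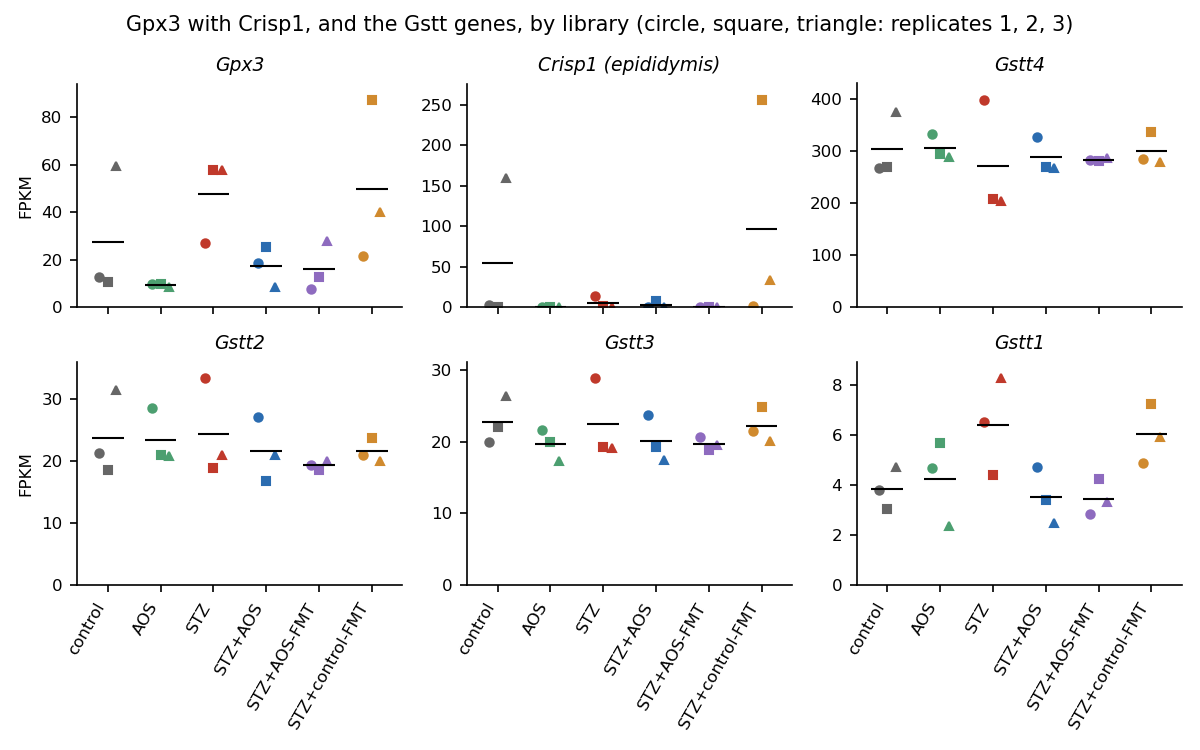
FPKM of Gpx3, Crisp1 and 4 theta-class transferases by group, with circles, squares and triangles for replicates 1, 2 and 3 and lines for group means. Gpx3 and Crisp1 were both high in control library 3 and STZ+control-FMT library 2, and Gstt4 was highest in STZ library 1.

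The 4 remaining members were not tested. Gpx2 was listed at 0 in all but 2 libraries and reached 0.14 FPKM, Gsta1 reached 0.44 FPKM, Gstm3 0.62 FPKM and Gstp3 0.88 FPKM. The 50 tested members reached 1 FPKM in at least 3 libraries, Gpx7 in 6, Gstp2 in 8 and Nqo1 in 17. Within the set, Gpx4 shares 61.7% of its 50-base stretches with other transcripts, including a pseudogene, and 34 of 54 members share none. Members made up 1.14% ± 0.027 (SD, n = 3) of the summed FPKM in control testis and 1.20% ± 0.057 (SD, n = 3) in STZ testis.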

How the data were processed

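RNA from 18 whole testis libraries was deposited as 1 table of 20985 genes. The authors deposited values without a named unit. The deposited values are taken as FPKM, scaled by the authors to transcript length and library depth, because they are not whole, their sums differ, and their lowest values depend on transcript length. That last evidence is partial: the rank correlation of a gene's lowest value above 0 with transcript length ran from -0.52 to -0.04 over 4 selections of low genes, tried in turn, and was near 0 in the first. Levels are compared between genes only under this reading; tests within a gene do not need it. Per the submitters' processing notes, Bowtie 0.12.2 and mm10 were used, with no role given. Which counter, annotation and scaling were used was not given in the sources used here.

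Genes with at least 1 FPKM in 3 libraries were tested with limma 3.58.1 (R 4.3.3) on log2(FPKM + 1), with 1 mean per group over all 18 libraries. P-values were Benjamini-Hochberg adjusted within each comparison and called under 0.05. The fit was also run on simulated data in which few genes changed, equally often up and down. Many more genes differed between STZ and control, mostly upward as deposited, so that run does not vouch for these calls. Alternatives were a pseudocount of 0.1, no filter and a minimum of 5, quantile normalization, median centring, fits of the compared groups only, a replicate block and leaving out each library. Leaving out the libraries with epididymal RNA was chosen after seeing the data. Members and lists were chosen with earlier results of these data known. Per-library values are given for the up to 10 largest called non-overlapping differences in each direction in STZ against control, up to 5 members of smallest p elsewhere, and a fixed set of core enzymes. Pathway genes are named in order of p, up to 6 per list. Nfe2l2, Keap1 and the lower genes named for these lists were added after their values were seen.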

Additional observations from a re-analysis of the deposited data

Results flagged for a closer look

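The effect of AOS differed between STZ and untreated mice in 21 members by the interaction term (limma, adjusted p under 0.05), given here as log2 values. It was more negative in 20 of 50 members and more positive in 1, where 29.1% and 6.12% of all genes were. After median centring the members split 12 to 5, where 1860 of all 14164 genes were more negative and 4190 more positive. Peroxide-reducing members were at -1.45 (Prdx2), -1.44 (Gpx1), -1.24 (Prdx3), -1.14 (Gpx7), -0.83 (Cat), -0.76 (Prdx1) and -0.21 (Prdx6). Transferases were at -1.49 (Mgst1), -1.2 (Gstm6), -1.07 (Gsta4), -0.97 (Gstm7), -0.95 (Gstm2), -0.94 (Mgst3), -0.88 (Gstk1), -0.79 (Gsto1) and -0.23 (Gstz1). The others were Hmox1 (-1.02), Sod3 (-0.9), Gsr (-0.75), Sod1 (-0.48) and Txnrd3 (0.28). Gstz1 and Prdx6 changed sign after median centring, at 0.08 and 0.09. These terms use the STZ and control libraries that the comparisons above also use.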

How the results depend on the processing

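Scaling had the widest effect, and it moved the counts over all 14164 genes too. After quantile normalization 4242, 4220 and 3706 of them were higher against STZ with STZ+AOS, STZ+AOS-FMT and STZ+control-FMT. In the same order 3108, 3205 and 3049 were lower. After median centring the member counts higher and lower were 12 and 14 for STZ against control and 5 and 12 for the interaction. Against STZ they were 11 higher with STZ+AOS, 13 and 17 with STZ+AOS-FMT and 12 and 12 with STZ+control-FMT. Quantile normalization gave 15 higher for STZ against control, 2 higher for STZ+AOS and for STZ+AOS-FMT against STZ, and 3 higher and 15 lower for STZ+control-FMT against STZ. Fitting only the groups compared gave 2 lower for STZ against control, 4 lower for STZ+AOS against control, and 2, 0 and 1 higher against STZ. Without the libraries with epididymal RNA, which leaves 1 STZ+control-FMT library assumed to vary like the others, STZ+AOS against control had 0 lower and STZ+control-FMT against STZ 2 higher and 14 lower. The causes were not tested. After median centring Gclm turned to -0.10 against control and to 0.18, 0.067 and 0.020 against STZ (0.020 for STZ+AOS by quantile normalization). Prdx6 turned to -0.12 and to 0.12, 0.16 and 0.18, with an interaction of 0.094. Gstz1 turned to 0.086 and 0.23, with an interaction of 0.078, and Sod1 to 0.12 and 0.018 in the FMT groups. Leaving out 1 library gave 19 to 31 higher and 3 to 8 lower for STZ against control, and 1 to 5 and 14 to 30 for the interaction. Against STZ it gave 2 to 8 and 29 to 33 (STZ+AOS), 2 to 6 and 22 to 33 (STZ+AOS-FMT), and 4 to 7 and 19 to 30 (STZ+control-FMT). STZ+AOS against control had 0 to 1 lower. All genes were not counted in the fits of the compared groups only or in those that left out libraries. These changes in member counts therefore cannot be told from changes over all genes. No sign of pairing by replicate number was seen, which does not exclude a shared batch. Deviations from group means correlated at -0.205 to 0.201 over 45 same-numbered pairs (median -0.023), against a median of 0.008 over 90 other pairs. With a replicate block STZ against control gave 25 members higher and 5 lower, and all genes were not counted in that fit. Read depth is not known, so no counting error is given.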
